A study of Homo sapiens with 34 samples.

Results

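The Hippo pathway effector YAP1 and 8 genes tied to it were followed through 34 RNA-seq libraries from cultured human prostate cells, kept on plastic or on a bone-like mineral. The 9 genes were taken by symbol from a count table of 26336 genes: the coactivators YAP1 and WWTR1 (TAZ), their DNA-binding partner TEAD1, the kinase LATS2, and the target genes CTGF (CCN2), CYR61 (CCN1), ANKRD1, AMOTL2 and AXL. All 9 symbols were present in the table. Poly(A)-selected RNA was sequenced from 4 lines: RWPE, a non-tumorigenic prostate epithelium, LNCaP, from a lymph node metastasis of prostate cancer, and VCaP and MDAPCa2a, both from bone metastases.

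YAP1 and WWTR1 are transcriptional coactivators that do not bind DNA themselves and act on genes through the TEAD factors. When the Hippo kinases, LATS2 among them, phosphorylate them, they are held in the cytoplasm or degraded. A stiff surface, cell spreading and actin tension are known to favour their nuclear, active state, while LATS2 and AMOTL2 are also target genes that feed back on the coactivators. These controls act largely on the proteins, so the mRNA of YAP1 reports its supply, and the mRNA of its targets is the usual readout of activity.

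The mineral was amorphous calcium phosphate (ACP), coated on the culture surface. Control medium was each line's own: serum-free keratinocyte medium with epidermal growth factor and pituitary extract for RWPE, and media with fetal bovine serum for LNCaP, VCaP and MDAPCa2a, so line and medium cannot be told apart. Stripped medium held serum treated with charcoal and dextran, which removes steroid hormones. Androgen was added on ACP at a labelled dose of 100 mM, and the labels call it DHT in one place and testosterone in another. LNCaP and VCaP had 5 groups each: plastic in control medium, plastic in stripped serum, and ACP in control medium, stripped serum or androgen. RWPE was not grown in stripped serum, and MDAPCa2a on ACP was not grown in control medium. MDAPCa2a grew on a protein coating on plastic and without it on ACP, so mineral and protein coating cannot be told apart in this line. Plastic cultures in control medium, called plastic control here, are labelled as continuous culture and all others as day 4. Of the 17 groups, 15 had 2 libraries. The androgen group of RWPE had 3, and the stripped group of VCaP on plastic had 1. The labels do not say whether replicates were separate cultures, so the p-values measure the spread between these libraries, which may be technical.

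The smallest library held 15440141 reads and the largest 44779246. Levels are given as CPM, the usual counts-per-million scale, after TMM scaling across all lines. The 8 plastic control libraries stood apart from the other 26 in the marker genes FGG and COL1A2. FGG, a fibrinogen gene of liver, was at 1.41 to 2.84 CPM in those 8 libraries and at no more than 0.0323 CPM in any other library. COL1A2, a collagen gene of fibroblasts, was at 0.750 to 1.76 CPM in them and at no more than 0.176 CPM elsewhere. Every comparison against plastic control therefore also compares these libraries with the rest, and the 2 cannot be told apart. The full marker lists did not separate the libraries in this way. The 5 liver markers summed to 5.46 to 143 CPM in the 8 plastic control libraries and to 0 to 322 CPM in the other 26. The 6 fibroblast markers summed to 4.83 to 44.3 CPM and to 0.954 to 161 CPM. The highest liver sums, 268 to 322 CPM, were those of VCaP on ACP in stripped serum. The basal epithelial markers KRT5, KRT14 and TP63 summed to between 3349 and 15699 CPM in RWPE and to no more than 37.2 CPM in any library of the 3 cancer lines. In RNA of whole cultures, fewer cells of a type and less RNA per cell cannot be told apart.

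Promoter sequences were available for 7 of the 9 genes in RefSeq (GRCh38.p14), as 10 windows of the 250 bases before a transcription start. They were searched for the 6-letter core of the TEAD binding motif, GGAATG, or CATTCC where it lies on the opposite strand. Of 35116 such windows over all genes, 11.9% held at least 1 match and 0.0826% held at least 3. CTGF held 3 matches, ANKRD1 held 2, and YAP1, the second start of AMOTL2 and the second start of AXL held 1 each. The 5 other windows, of WWTR1 (both starts), LATS2, AMOTL2 (first start) and AXL (first start), held none. A match is a stretch of letters and was not measured as a binding site. The windows that held a match are given for the 3 target genes whose RNA fell on ACP in RWPE, and for ANKRD1. They are written 5′ to 3′ on the strand of the gene with the matches in capitals. The windows at the first starts of AMOTL2 and AXL, which held none, are not shown. The position of a match is that of its first base, counted back from the start.
CTGF promoter, chr6:131951373-131951622, minus strand, matches at -169, -104 and -95: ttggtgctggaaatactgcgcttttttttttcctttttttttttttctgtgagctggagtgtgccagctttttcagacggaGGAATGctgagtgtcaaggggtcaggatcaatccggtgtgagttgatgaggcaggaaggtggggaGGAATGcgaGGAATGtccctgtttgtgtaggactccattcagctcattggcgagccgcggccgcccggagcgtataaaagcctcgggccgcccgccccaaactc
ANKRD1 promoter, chr10:90921088-90921337, minus strand, matches at -220 and -128: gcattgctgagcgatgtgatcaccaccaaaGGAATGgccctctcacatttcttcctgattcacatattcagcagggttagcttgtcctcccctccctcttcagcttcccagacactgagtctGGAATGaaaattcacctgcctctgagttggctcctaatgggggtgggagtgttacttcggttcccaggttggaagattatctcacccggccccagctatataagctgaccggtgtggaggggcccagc
AMOTL2 promoter at the second start, chr3:134374448-134374697, minus strand, match at -69: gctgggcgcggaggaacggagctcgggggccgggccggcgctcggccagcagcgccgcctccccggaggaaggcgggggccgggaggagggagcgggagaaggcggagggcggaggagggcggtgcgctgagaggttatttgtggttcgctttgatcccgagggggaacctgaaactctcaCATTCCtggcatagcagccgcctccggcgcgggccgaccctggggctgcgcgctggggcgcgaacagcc
AXL promoter at the second start, chr19:41226505-41226754, plus strand, match at -212: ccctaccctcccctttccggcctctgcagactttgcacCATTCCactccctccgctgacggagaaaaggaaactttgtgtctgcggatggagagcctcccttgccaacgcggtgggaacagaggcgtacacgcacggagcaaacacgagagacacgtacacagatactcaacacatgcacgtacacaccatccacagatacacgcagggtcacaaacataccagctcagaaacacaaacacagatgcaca
In the CTGF window 2 of the 3 matches lie close together.

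The first question was how much of this pathway each line expressed on plastic in control medium. YAP1 was at 235 and 225 CPM in the RWPE libraries, 133 and 132 CPM in LNCaP, 180.0 and 161 CPM in MDAPCa2a and 25.1 and 32.1 CPM in VCaP. VCaP thus held the lowest YAP1, with no overlap with any other line. Against RWPE, the log2 fold change of YAP1 was -3.01 ± 0.30 (SE) in VCaP (adjusted p = 3.9e-09, edgeR quasi-likelihood test with Benjamini-Hochberg adjustment over all genes tested) and -0.80 ± 0.28 in LNCaP (adjusted p = 0.0159). The LNCaP difference did not pass the threshold of 0.05 without either of its 2 plastic control libraries. In MDAPCa2a it was -0.43 ± 0.27 (adjusted p = 0.184).

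WWTR1, the paralog of YAP1, followed a different order. It was at 71.9 and 70.96 CPM in RWPE, 14.97 and 13.2 CPM in MDAPCa2a, 5.40 and 9.73 CPM in VCaP and 2.47 and 2.54 CPM in LNCaP, and no 2 lines overlapped. Relative to RWPE it was lower, with log2 fold changes of -4.83 ± 0.37 in LNCaP (adjusted p = 4.79e-11), -3.24 ± 0.34 in VCaP (adjusted p = 9.75e-09) and -2.34 ± 0.32 in MDAPCa2a (adjusted p = 1.03e-06). LNCaP therefore kept 57.6% of the RWPE level of YAP1 and 3.51% of that of WWTR1, whereas VCaP kept 12.4% and 10.6%.

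TEAD1, which carries the coactivators to DNA, was highest in VCaP, the line with the least YAP1. Its levels were 172 and 161 CPM in VCaP, 141 and 144 CPM in RWPE, 32.9 and 31.9 CPM in LNCaP and 20.3 and 16.4 CPM in MDAPCa2a. The VCaP and RWPE libraries did not overlap, but their difference of 0.22 ± 0.30 on the log2 scale did not pass the test (adjusted p = 0.533). LNCaP was lower than RWPE, with a log2 fold change of -2.14 ± 0.31 (adjusted p = 2.41e-06), and so was MDAPCa2a, with -2.96 ± 0.32 (adjusted p = 2.59e-08). LATS2, the kinase, had the smallest ratio of highest to lowest line of the 9 genes, from 37.1 and 38.6 CPM in RWPE to 13.2 and 13.5 CPM in LNCaP.

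Among the target genes, AMOTL2 and AXL stood far below their RWPE level in all 3 cancer lines. AMOTL2, an angiomotin that binds YAP1, was at 332 and 399.8 CPM in RWPE and between 9.95 and 21.6 CPM in the 6 plastic control libraries of the other lines. AXL, a receptor tyrosine kinase, was at 161 and 143 CPM in RWPE, 0.904 and 0.94 CPM in VCaP, 0.549 and 0.53 CPM in LNCaP and 0.357 and 0.221 CPM in MDAPCa2a. The log2 fold change of AXL against RWPE was -8.12 ± 0.48 in LNCaP, -7.36 ± 0.46 in VCaP and -9.02 ± 0.52 in MDAPCa2a, with adjusted p of 7.82e-13, 1.74e-12 and 3.42e-13. AXL in LNCaP, VCaP and MDAPCa2a stood at 0.355%, 0.607% and 0.190% of its RWPE level, beside 0.121%, 0.0507% and 0.0744% for the basal keratin KRT5, and the part of basal RNA in this result was not tested.

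CYR61, a secreted matrix protein, showed a narrower range, with 22.8 and 35.8 CPM in RWPE, 17.005 and 15.8 CPM in VCaP, 13.5 and 12.9 CPM in MDAPCa2a and 8.22 and 6.91 CPM in LNCaP. CTGF, its secreted relative and the most used readout of YAP activity, was scarce in every line: 1.09 and 3.62 CPM in RWPE, 0.671 and 1.01 CPM in VCaP, 0.38 and 0.155 CPM in LNCaP and 0.0298 and 0.0827 CPM in MDAPCa2a. The RWPE libraries, with 41 and 143 reads, differed widely from each other in CTGF, and both lay above all libraries of the other lines. ANKRD1, an ankyrin repeat protein of the nucleus, had at most 9 reads in any plastic control library of any line.

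In all, 8 of the 9 genes were lower in LNCaP than in RWPE, against 27.9% of the 17323 genes tested. The count was 5 of 9 in VCaP, against 30.3% of all genes, and 7 of 9 in MDAPCa2a, against 28.4%, and none of the 9 was higher in any of these lines, where 29.5%, 32.1% and 28.3% of all genes were. The 3 comparisons share the RWPE libraries. Without RWPE plastic control replicate 2, CYR61 in VCaP and CTGF in LNCaP did not pass the threshold. CTGF in LNCaP also failed it without LNCaP plastic control replicate 2, and LATS2 in MDAPCa2a without MDAPCa2a plastic control replicate 1.

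**Figure D1:**
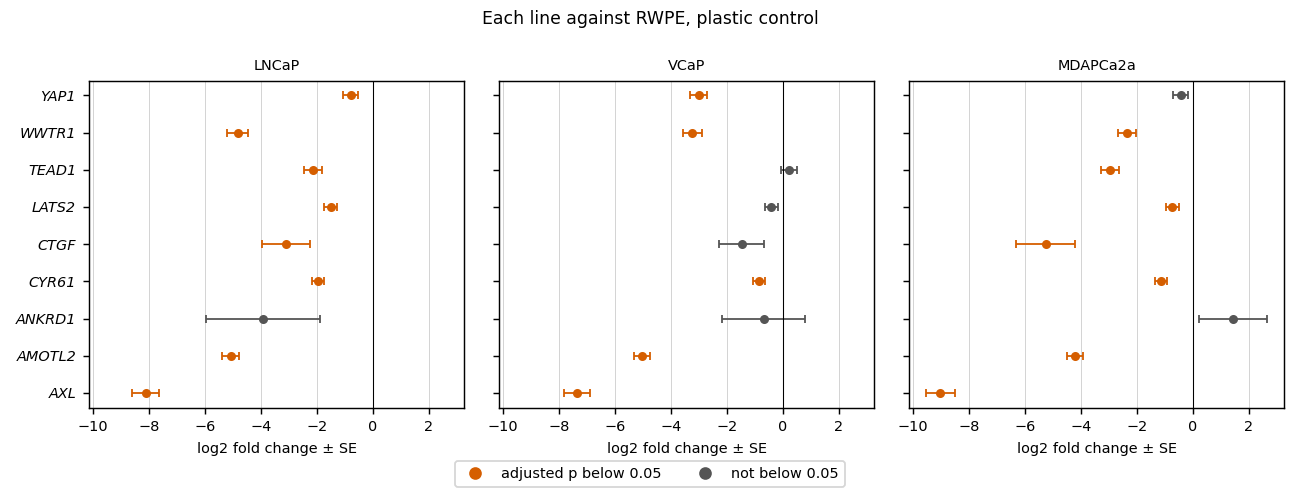
Log2 fold change (x axis, with its SE as the bar) of each gene (y axis) in LNCaP, VCaP and MDAPCa2a against RWPE, all on plastic in control medium with 2 libraries a group. Orange points passed the adjusted p of 0.05: 8 genes in LNCaP, 5 in VCaP and 7 in MDAPCa2a, all to the left of 0.

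Levels of different genes can be compared per kilobase of exon. In RWPE on plastic in control medium, AMOTL2 led with 61.2 CPM per kilobase, ahead of YAP1 with 36.6 and AXL with 29.5. In LNCaP and MDAPCa2a, YAP1 led, with 21.0 and 27.1 CPM per kilobase, and no target gene exceeded 5.38. In VCaP, TEAD1 led with 16.2 CPM per kilobase, above CYR61 with 6.68, LATS2 with 5.12 and YAP1 with 4.54. YAP1 thus stood above TEAD1 in LNCaP and MDAPCa2a, and TEAD1 above YAP1 in VCaP.

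**Figure D2:**
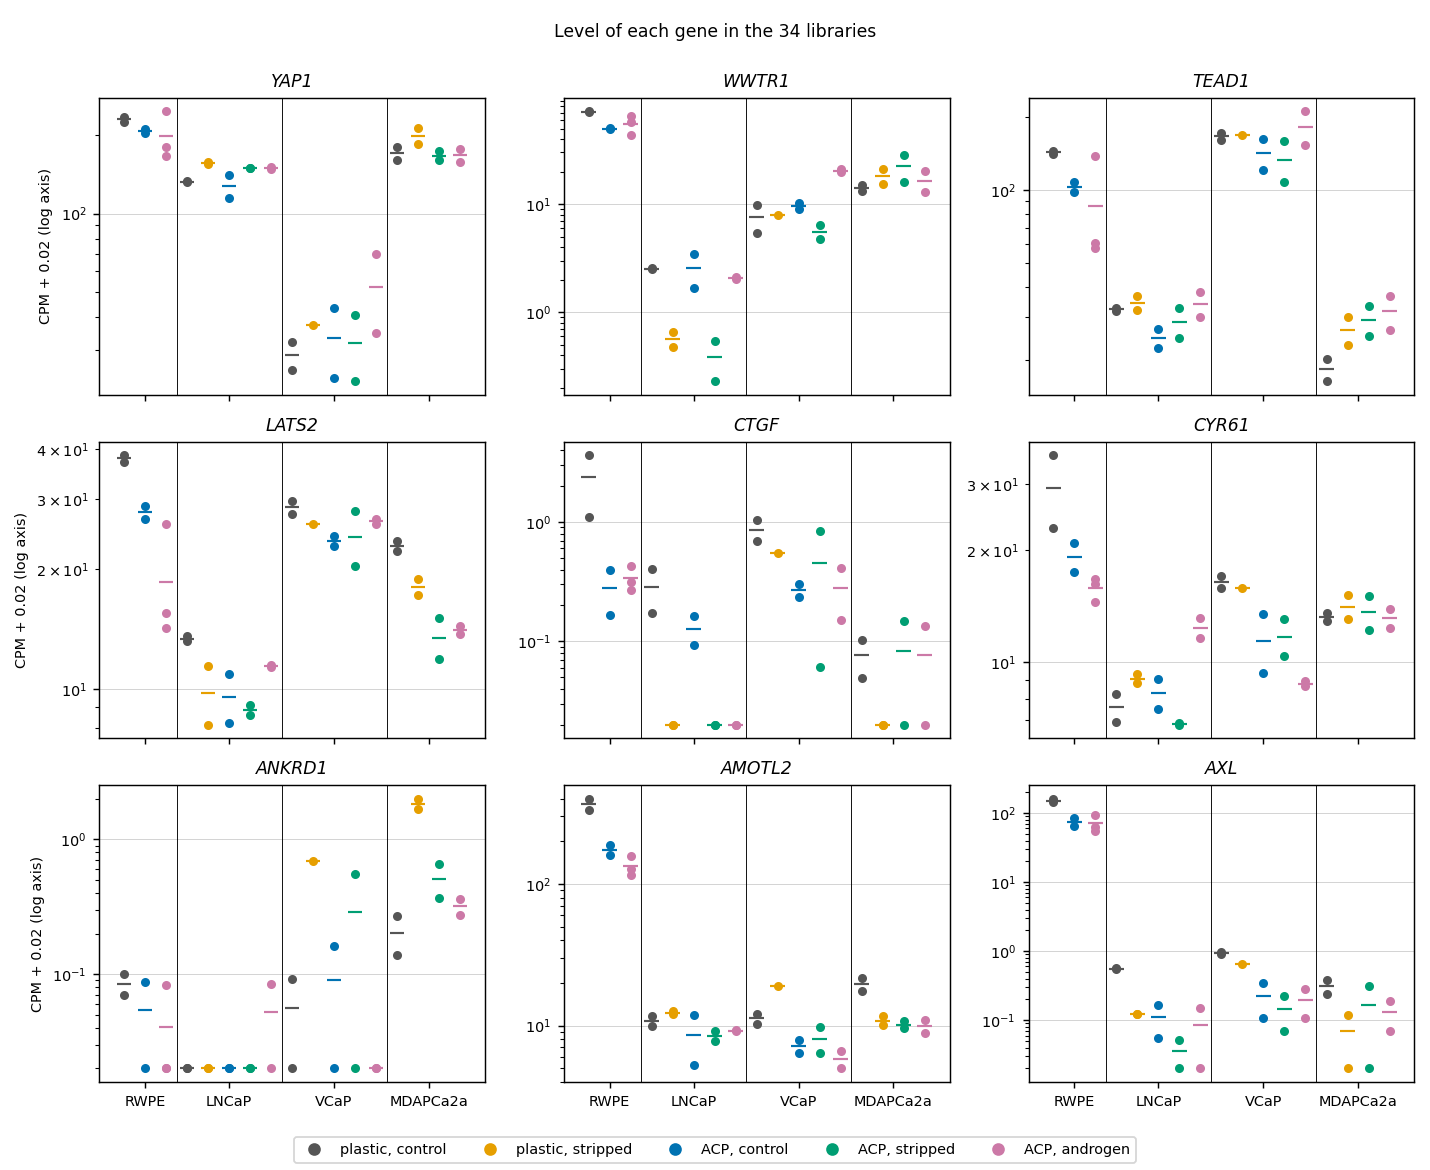
Level of each of the 9 genes in all 34 libraries, as CPM plus 0.02 on a log axis (each panel has its own range), with lines in columns, surface and medium in colours, and a bar at the group mean. AMOTL2 and AXL are far higher in RWPE than in the other lines, and in RWPE the ACP libraries of both lie below the plastic libraries.

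The main question was whether the pathway's RNA differed between ACP and plastic. In RWPE in control medium, 3 target genes fell on ACP: CTGF, AMOTL2 and AXL. Of all 14293 genes tested, 1.33% fell. AMOTL2 and AXL had reads enough for the test on either surface. CTGF passed the filter on low counts only through the plastic libraries, where it was high, so its call is given as a description and adds no support. ANKRD1 did not pass the filter. None of the 9 genes rose, against 2.83% of all genes.

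AMOTL2 was at 332 and 399.8 CPM on plastic and 189 and 161 CPM on ACP. Both ACP libraries lay below both plastic libraries, and the log2 fold change was -1.04 ± 0.21 (adjusted p = 0.0249). AXL was at 161 and 143 CPM on plastic and 84.7 and 64.7 CPM on ACP, again without overlap, with a log2 fold change of -0.999 ± 0.24 (adjusted p = 0.0492). CTGF was at 1.09 and 3.62 CPM on plastic, from 41 and 143 reads, and at 0.375 and 0.146 CPM on ACP, from 11 and 3 reads. Its groups did not overlap either, and its log2 fold change of -3.07 ± 0.68 (adjusted p = 0.036) rested on few reads on ACP.

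The 5 other genes tested in RWPE did not pass. YAP1 was at 235 and 225 CPM on plastic and 203 and 211 CPM on ACP, a log2 fold change of -0.13 ± 0.21 (adjusted p = 0.754). WWTR1 was at 71.9 and 70.96 CPM on plastic and 50.3 and 49.6 CPM on ACP, with a log2 fold change of -0.49 ± 0.20 (adjusted p = 0.172). TEAD1, LATS2 and CYR61 had log2 fold changes of -0.45 ± 0.35, -0.42 ± 0.25 and -0.59 ± 0.22. For 8 of the 9 genes, all but ANKRD1, both ACP libraries lay below both plastic libraries, a pattern seen in 31.3% of 17560 genes. CTGF, which passed the filter only through plastic, is among the 8. Upstream and target genes were not tested against each other.

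These calls rested on few libraries. AMOTL2 and AXL did not pass the threshold once any 1 of the 4 libraries compared was left out, although their log2 fold changes stayed within -1.17 to -0.90 and -1.20 to -0.84. CTGF did not pass without either ACP library or without plastic control replicate 2, with log2 fold changes of -3.94 to -1.97. In a fit of all 4 lines, AMOTL2 passed while CTGF and AXL, at log2 -3.10 and -1.02, had adjusted p of 0.0532 and 0.0836. The plastic libraries of this comparison also carried the liver transcripts, whose 5 markers summed to 11.7 and 12.4 CPM there and to at most 0.390 CPM on ACP in control medium. Of 6 fibroblast markers, 4 were tested and 2 fell on ACP: COL1A2 from a mean of 1.18 to 0.0487 CPM and COL3A1 from 2.06 to 0.0244 CPM, beside 2.35 to 0.260 CPM for CTGF. The sum of the 6, at 27.7 to 33.3 CPM on plastic and 26.7 to 31.6 CPM on ACP, was mostly COL1A1, which had means of 26.7 and 28.9 CPM. The part of such RNA in the 3 calls was not tested.

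Neither LNCaP nor VCaP gave a call for any of these genes in control medium. In LNCaP, 0 of the 7 genes tested passed (CTGF and ANKRD1 were filtered out, and AXL passed only through plastic control), where 12.6% of all genes did. In VCaP, 0 of 9 passed, where 7 of 15614 genes did, 0.0448%. On counts simulated for each comparison, the test recovered 56.5% of 200 genes changed by log2 1 in LNCaP and 27.5% in VCaP. At log2 2 it recovered 95.5% and 83%. The lack of calls in VCaP thus says little about differences near log2 1. AMOTL2 in LNCaP was at 11.6 and 9.95 CPM on plastic and 5.22 and 11.8 CPM on ACP. Its ACP libraries differed from each other more than the groups did, and its log2 fold change was -0.24 ± 0.30 (adjusted p = 0.613). Without LNCaP ACP control replicate 2 it was -0.94 with an adjusted p of 0.0268.

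In VCaP, AMOTL2 was at 12.1 and 10.3 CPM on plastic and 6.34 and 7.86 CPM on ACP, a log2 fold change of -0.61 ± 0.31 (adjusted p = 0.688). CTGF in VCaP was at 0.671 and 1.01 CPM on plastic and 0.282 and 0.216 CPM on ACP. AXL was lower on ACP in both lines without overlap, at 0.549 and 0.53 against 0.0358 and 0.146 CPM in LNCaP and 0.904 and 0.94 against 0.329 and 0.0864 CPM in VCaP. The log2 fold changes of AXL were -2.43 ± 0.87 (adjusted p = 0.0863) and -2.09 ± 0.85 (adjusted p = 0.673), at levels of AXL below those of COL1A2 in the same plastic libraries. YAP1 overlapped between surfaces in both lines, with 133 and 132 CPM on plastic and 114 and 141 CPM on ACP in LNCaP, and 25.1 and 32.1 and 43.5 and 23.4 CPM in VCaP.

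Stripped serum allowed a comparison of surfaces with no plastic control library in either group, although those libraries entered the fits. None of the 7 genes tested in LNCaP passed, where 6.12% of all genes did. None of 9 passed in VCaP, where 0 of 15614 genes did with edgeR, 511 had an unadjusted p under 0.05 and DESeq2 called 4. The plastic arm there was 1 library, assumed to vary like the other VCaP groups. On counts simulated for this comparison, the test recovered 6% of 200 genes changed by log2 1 and 74% of 200 changed by log2 2, so the lack of calls says little about smaller differences. None of 7 passed in MDAPCa2a, where 1 of 13626 genes did, 0.00734%, with 2071 at an unadjusted p under 0.05 and 206 called by DESeq2. The surfaces of MDAPCa2a also differed in the protein coating, which only plastic had. The number of these genes called was 0 in all 3 lines also when the plastic control libraries were left out of the fits.

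AMOTL2 in stripped serum was at 12.6 and 11.98 CPM on plastic and 7.76 and 9.11 CPM on ACP in LNCaP, with no overlap and a log2 fold change of -0.51 ± 0.30 (adjusted p = 0.31). In VCaP it was at 18.9 CPM in the single plastic library and 9.70 and 6.35 CPM on ACP, a log2 fold change of -1.21 ± 0.37 (adjusted p = 1). In MDAPCa2a the levels were 11.6 and 10.1 CPM and 10.7 and 9.52 CPM, a log2 fold change of -0.01 ± 0.22. CYR61 was lower on ACP without overlap in LNCaP, at 8.77 and 9.28 against 6.86 and 6.80 CPM, and in VCaP, at 15.8 against 13.02 and 10.4 CPM. In MDAPCa2a the CYR61 libraries overlapped. ANKRD1 in MDAPCa2a was at 1.66 and 1.98 CPM on plastic and 0.636 and 0.348 CPM on ACP, a log2 fold change of -1.79 ± 0.50 (adjusted p = 0.227), and its groups did not overlap.

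Over the 6 comparisons of ACP with plastic, 6 genes were tested in each. Their estimate was negative in 6 of 6 for AMOTL2 and LATS2, in 5 of 6 for TEAD1, in 4 of 6 for YAP1 and CYR61 and in 3 of 6 for WWTR1. AXL, CTGF and ANKRD1 were tested only in lines where some group was high enough. In MDAPCa2a, where neither AXL nor CTGF passed the filter, AXL had 5 reads on ACP and 3 on plastic in stripped serum, and CTGF had 2 and 0. No gene of the set was higher on ACP without overlap in any of the 6, where 29.4% of all genes were in RWPE, 24.3% and 15.3% in LNCaP and VCaP in control medium, and 24.1%, 27.8% and 13.7% in LNCaP, VCaP and MDAPCa2a in stripped serum. Lower without overlap were 4 of the 9 in LNCaP in control medium (37.3% of all genes), 5 in VCaP in control medium (25.5%), 4 in LNCaP in stripped serum (25.6%), 6 in VCaP in stripped serum (31.2%) and 3 in MDAPCa2a (22.7%). In LNCaP in control medium, that share was close to the share of all genes. Genes of few reads are part of these counts, which are a description and add no support. They are CTGF and AXL in LNCaP and VCaP in control medium, and AXL in LNCaP in stripped serum. They are also ANKRD1 and AXL in VCaP in stripped serum, and ANKRD1 in MDAPCa2a. ANKRD1 had 0 reads on both surfaces in LNCaP in either medium, and CTGF in LNCaP in stripped serum, so neither could be higher there.

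Whether the surface difference itself varied between settings was tested with interaction terms. None of the 9 genes passed for LNCaP against RWPE in control medium (27 genes, 0.156% of all genes, did), for VCaP against RWPE (32 genes, 0.185%), or for MDAPCa2a against LNCaP in stripped serum (62 genes, 0.358%). Nor did any of the 7 tested for stripped against control medium within LNCaP (45 genes, 0.307%). For AMOTL2, the surface effect in LNCaP minus that in RWPE was 0.73 ± 0.36 on the log2 scale (adjusted p = 0.546). For VCaP minus RWPE it was 0.41 ± 0.37 (adjusted p = 0.845). The fall of AMOTL2 was thus called in RWPE and not in the other lines, but a difference between lines was not shown.

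**Figure D3:**
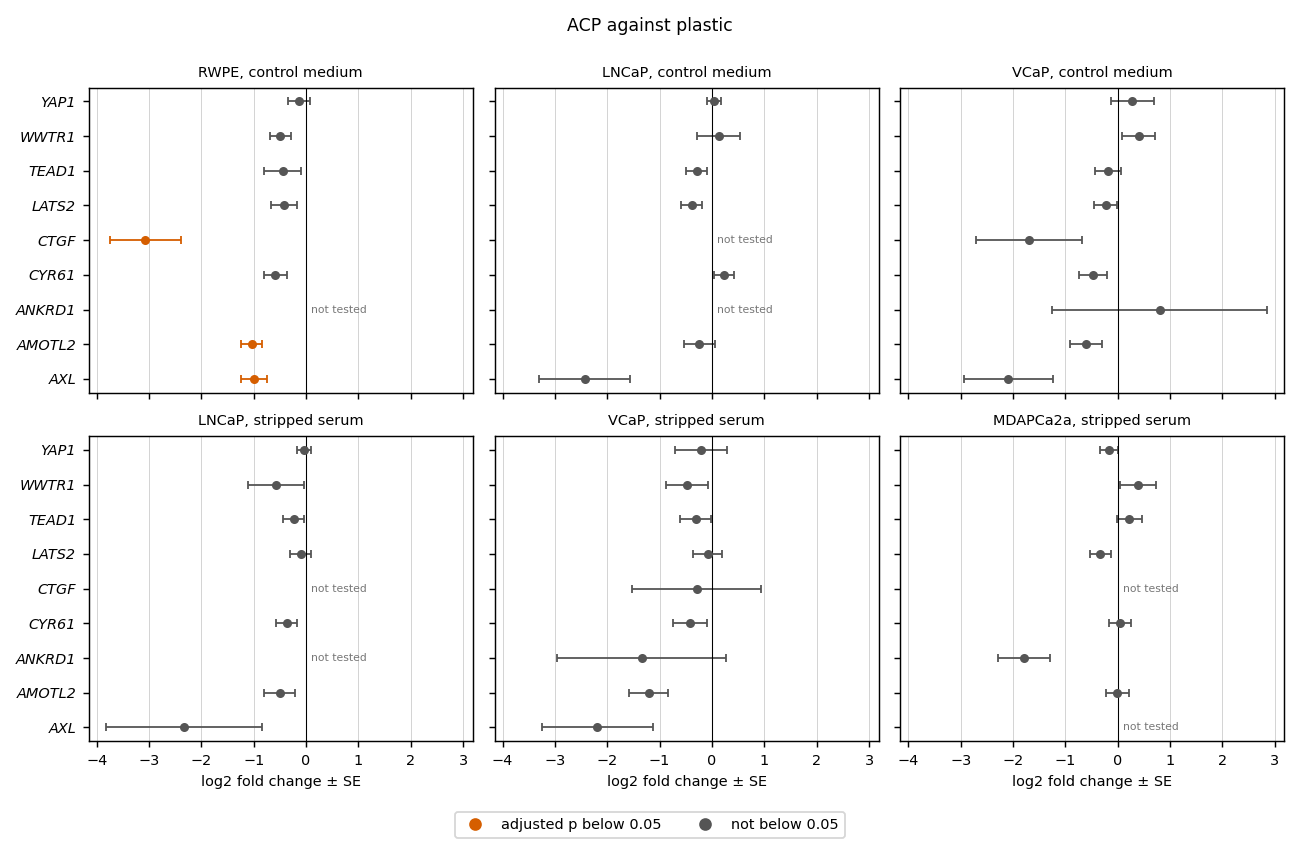
Log2 fold change (x axis, with its SE as the bar) of each gene (y axis) on ACP against plastic, in 6 panels by line and medium. The 3 orange points, CTGF, AMOTL2 and AXL in RWPE, passed the adjusted p of 0.05, and grey points did not.

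Serum and androgen moved WWTR1 in LNCaP. On plastic, WWTR1 was at 2.47 and 2.54 CPM in control medium and 0.641 and 0.459 CPM in stripped serum. On ACP it was at 3.43 and 1.64 CPM in control medium, 0.517 and 0.21 CPM in stripped serum and 2.11 and 2.02 CPM with androgen. All 4 stripped libraries of LNCaP lay below the 6 others, and they held few reads of it: 25 and 9 on plastic and 16 and 6 on ACP. WWTR1 fell with stripping, with log2 fold changes of -2.10 ± 0.46 on plastic (adjusted p = 0.0169) and -2.80 ± 0.49 on ACP (adjusted p = 0.00827), and it rose with androgen, by 2.47 ± 0.49 (adjusted p = 0.0139).

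VCaP showed the rise with androgen as well. WWTR1 in VCaP on ACP was at 10.2 and 9.07 CPM in control medium, 6.34 and 4.75 CPM in stripped serum and 19.8 and 20.9 CPM with androgen. Both androgen libraries lay above all other VCaP libraries, and the log2 fold change against stripped serum was 1.88 ± 0.33 (adjusted p = 0.00634). Stripping in VCaP gave -0.78 ± 0.33 on ACP (adjusted p = 0.274) and 0.09 ± 0.39 on plastic (adjusted p = 0.92). In MDAPCa2a WWTR1 was at 28.5 and 16.1 CPM in stripped serum and 20.2 and 12.8 CPM with androgen on ACP, a log2 fold change of -0.49 ± 0.34 (adjusted p = 0.968). A difference of the androgen effect between lines was not tested.

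The VCaP rise passed the threshold in every alternative run. The LNCaP fall on plastic did not pass once any 1 of its 4 libraries was left out, and the fall on ACP did not pass without ACP stripped replicate 2. The LNCaP rise did not pass without ACP androgen replicate 1 or ACP stripped replicate 2. The 2 comparisons on ACP in LNCaP share the stripped libraries. Neither compared plastic control libraries, which did enter the fit of the line. YAP1 stayed between 114 and 157 CPM in all 10 LNCaP libraries, and no comparison of serum or androgen called it in any line.

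**Figure D4:**
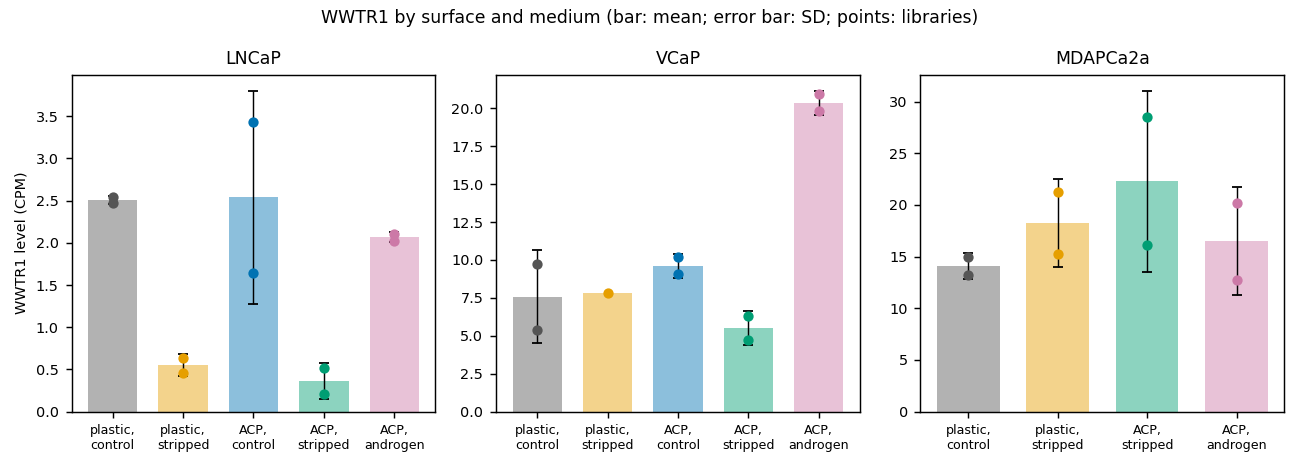
WWTR1 level in CPM (y axis) by surface and medium in LNCaP, VCaP and MDAPCa2a, with points for libraries, bars for means and error bars for the SD (VCaP on plastic in stripped serum is 1 library). The 4 stripped LNCaP libraries, at 0.21 to 0.641 CPM, lie below the other 6, and the 2 VCaP androgen libraries, at 19.8 and 20.9 CPM, lie above all other VCaP libraries.

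WWTR1 was the only gene of the set called for stripping in LNCaP, 1 of 7 genes tested both on plastic (9.45% of all genes called) and on ACP (5.37%). With androgen in LNCaP, 2 of 7 rose, WWTR1 and CYR61, where 3.77% of all genes rose and 3.96% fell. CYR61 was at 6.86 and 6.80 CPM in stripped serum and 13.1 and 11.6 CPM with androgen, a log2 fold change of 0.84 ± 0.20 (adjusted p = 0.0272). Its androgen libraries were the highest of the 10 LNCaP libraries, and the call was lost without ACP androgen replicate 1 or either stripped ACP library. In VCaP, 1 of 9 genes rose with androgen, where 8.67% of all genes rose and 8.8% fell. CYR61 was there at 13.02 and 10.4 CPM in stripped serum and 8.61 and 8.89 CPM with androgen, below its stripped level in both libraries (adjusted p = 0.308). In MDAPCa2a, androgen gave 0 calls in the set and 0 of 13626 genes with edgeR, with 236 at an unadjusted p under 0.05 and 3 called by DESeq2.

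ANKRD1 differed with stripping in MDAPCa2a on plastic. It was at 0.119 and 0.248 CPM in control medium, from 4 and 9 reads, and at 1.66 and 1.98 CPM in stripped serum, from 50 and 49 reads. The log2 fold change was 3.29 ± 0.51 (adjusted p = 0.0247), where 0.881% of all genes rose. ANKRD1 passed the filter on low counts only because of these stripped libraries, with at most 10 reads in any other MDAPCa2a library, so the call is a description and adds no support. The call was lost once any 1 of the 4 libraries was left out, with log2 fold changes of 2.86 to 3.89, and in the fit of all lines, with an adjusted p of 0.0942. In VCaP the single plastic library in stripped serum held 14 reads of ANKRD1 and the plastic control libraries 0 and 3, a ratio of 16.99 in CPM (exact 95% interval 4.74 to 92.2, counting error only). That difference did not pass the test (adjusted p = 0.257), and 0 of 9 genes were called for stripping in VCaP on plastic, where 0.89% of all genes were, or on ACP, where 0.82% were.

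CTGF in LNCaP had 18 and 7 reads in the plastic control libraries and 0 and 0 in stripped serum on plastic. With a count of 0 set at 3 reads over the group, it was 5.27-fold lower in stripped serum. On ACP it had 4 and 2 reads in control medium and 0 in all 4 libraries with stripped serum or androgen. Set the same way, it was 2.15-fold lower in stripped serum than in control medium there. Both ratios leave out the counting error of the reads in control medium and are not lower bounds. CTGF did not pass the filter in LNCaP and was not tested. AMOTL2 in MDAPCa2a was lower in stripped serum, at 21.6 and 17.5 CPM in control medium and 11.6 and 10.1 CPM in stripped serum on plastic, without overlap, with a log2 fold change of -0.82 ± 0.22 and an adjusted p of 0.102 in edgeR, 0.0446 without the filter on low counts and 0.0364 in DESeq2.

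In RWPE, androgen was compared with control medium on ACP. None of the 8 genes tested passed, where 19.1% of all genes did. Replicate 3 of the androgen group stood apart from replicates 1 and 2: TEAD1 was at 57.8, 60.8 and 138 CPM in replicates 1, 2 and 3, and at 97.6 and 107 CPM in control medium. YAP1 was at 166, 179.9 and 246 CPM, LATS2 at 14.2, 15.5 and 25.9 CPM and AMOTL2 at 116, 127 and 157 CPM in the same order. Without replicate 3, TEAD1, LATS2 and AMOTL2 had log2 fold changes of -0.76, -0.87 and -0.49 with adjusted p of 0.000999, 0.000783 and 0.0196. With the replicate number as a block, which also takes replicate 3 out of the comparison, the same 3 genes passed. So did 5741 of all 14293 genes tested, in either direction, so 3 of 8 does not stand out. The summed basal markers in the androgen group ran from 3349 to 10954 CPM, beside 12538 to 15699 CPM in ACP control medium, and their part in these values was not tested.

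Other genes of the pathway were counted from 3 lists. Of 21 Hippo kinases, scaffolds and TEAD cofactors, 0 of 21 tested were called on ACP against plastic in RWPE and 0 of 19 in LNCaP and in VCaP in control medium. In LNCaP in stripped serum 1 of 19 rose and 1 fell: STK3, an upstream Hippo kinase, rose by log2 1.06 ± 0.24 (adjusted p = 0.028), and AJUBA, a LIM protein that inhibits LATS kinases, fell, with a log2 fold change of -0.87 ± 0.15 (adjusted p = 0.01). STK3 in those groups was at 42.0 to 57.2 CPM on plastic and 81.2 to 121 CPM on ACP. None of the 19 was called in VCaP or MDAPCa2a in stripped serum. In LNCaP in stripped serum, 6.12% of all genes were called, and whether 2 of 19 differs from that share was not tested.

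Of 16 further YAP target genes, 1 of 15 tested fell on ACP in RWPE, NT5E, the ecto-nucleotidase CD73, at log2 -1.26 ± 0.28 (adjusted p = 0.0358), and none rose. Over all genes tested there, 1.33% fell. The median over the 15 was -0.33 on the log2 scale, against 0.03 over all genes tested, with 12 negative and 3 positive estimates. In LNCaP in control medium 1 of 13 fell and none rose, where 12.6% of all genes were called. In LNCaP in stripped serum MYOF, a membrane repair protein, rose by 2.82 ± 0.41 (adjusted p = 0.00436) from 1.94 to 3.16 CPM on plastic to 17.1 to 18.6 CPM on ACP, while PTPN14, a phosphatase that restrains YAP, fell, at -1.32 ± 0.23 (adjusted p = 0.0106). Those 2 were the called genes among 13, where 6.12% of all genes were called. Whether these counts in LNCaP differ from the shares of all genes was not tested. No gene of this list was called in VCaP or MDAPCa2a.

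Of 14 actin cytoskeleton genes driven by SRF, the factor that shares many targets with YAP, FLNA, which crosslinks actin filaments, fell on ACP in 3 comparisons. In RWPE it was at 1290.2 and 1290.5 CPM on plastic and 426 to 557 CPM on ACP, a log2 fold change of -1.37 ± 0.26 (adjusted p = 0.0213). It was -0.76 ± 0.19 in LNCaP in control medium (adjusted p = 0.0281) and -0.95 ± 0.19 in LNCaP in stripped serum (adjusted p = 0.0185). FLNA was the only 1 of 12 called in RWPE and the only 1 of 11 in LNCaP in stripped serum. In LNCaP in control medium TPM2, a tropomyosin, fell too, at -1.92 ± 0.50 (adjusted p = 0.0322). All-gene shares were 1.33% lower in RWPE and, in either direction, 12.6% and 6.12% in LNCaP in control medium and stripped serum. Lower alone in LNCaP were 857 of 14656 genes in control medium and 264 of 14656 in stripped serum. Whether 2 and 1 of 11 differ from these shares was not tested. None of this list was called in VCaP or MDAPCa2a. Each call of FLNA was lost without at least 3 of the 4 libraries of its comparison, left out in turn.

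Genes with a pattern like that of YAP1 were sought over the 17 group means of log2 CPM, among 13217 genes with at least 5 CPM in a group. The 5 most alike were KIAA1324L, HLA-C, TNFRSF1A, DTNBP1 and PHLDA3, with Pearson r of 0.97 to 0.98. The groups share lines, so these values mainly order the lines. TEAD1 had an r of -0.66 with YAP1, AMOTL2 0.46 and WWTR1 0.12. With the mean of each line taken off, the genes most like CTGF were STK4, NAF1, LSM14A, RPL7L1 and GAR1, with r of 0.88 to 0.92, and AXL ranked 50 of 13218 with an r of 0.80. CTGF was read at or near 0 in many groups, and the mean of AXL was highest in the plastic control group in all 4 lines, that of CTGF in all but MDAPCa2a.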

How the data were processed

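Read counts per gene symbol were taken as the authors deposited them: unnormalized whole numbers for 26336 genes and 34 libraries in a single table, with each column matched to a sample by its label. The submitters' processing notes list STAR, HTSeq and hg19, with no role or version. Annotation and strand setting: not given in the sources used here. Reads of a gene and of one on the opposite strand therefore cannot be told apart. The RWPE plastic control columns hold 16 date-like values of 12 genes, none of them described here.

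Genes were tested with edgeR 4.0.16 in R 4.3.3 (the quasi-likelihood test, after TMM and after filterByExpr at a minimum of 10 reads), with Benjamini-Hochberg adjustment over all genes tested and a threshold of 0.05. A comparison within a line came from a fit of that line alone, and one between lines from a fit of the 34 libraries together. SEs were taken as the log2 fold change over the root of F. The filter left 8 of the 9 genes in RWPE, 7 in LNCaP, 9 in VCaP, 7 in MDAPCa2a and 9 in the fit of all lines. A ratio to a count of 0 set that count at 3 over the group and left out the counting error of the other group. Exact 95% intervals cover counting error only. Lengths for levels per kilobase are exon unions of GENCODE. Genes are named by rule: all 9, the list gene with the largest called rise and fall in each surface comparison, marker genes, and the 5 genes most alike. For 1 listed target gene that the rule names, the result is not reported here. The 9 genes, the lists and the tests were chosen with earlier results of these data known. The fits were tested on simulated data. Alternatives were RLE size factors, no count filter, DESeq2 1.42.0, a replicate block, a fit of all lines and leaving out each library. Leaving out the plastic control libraries or the genes with date-like values was chosen after seeing the data.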

Additional observations from a re-analysis of the deposited data

How the results depend on the processing

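Numbers of genes called moved far more with the settings than the log2 fold changes did, and no called log2 fold change of the 9 genes changed sign under any alternative run. The numbers or shares of all genes called stand in the text for the surface comparisons and the interactions. Depth limits CTGF, ANKRD1 and, outside RWPE, AXL, which are near 0 reads in many libraries. It also limits WWTR1 in the stripped LNCaP libraries, at 6 to 25 reads. Without the count filter, the number of all genes called became 1226 for RWPE surface, 2933 for LNCaP surface, 72 for VCaP surface, 1827 for LNCaP surface in stripped serum, 1 for VCaP surface in stripped serum, 320 for MDAPCa2a surface in stripped serum, 2193 for LNCaP stripping on plastic, 1231 for VCaP stripping on plastic, 855 for MDAPCa2a stripping on plastic, 1732 for LNCaP stripping on ACP, 927 for VCaP stripping on ACP, 2028 for LNCaP androgen, 9 for MDAPCa2a androgen, 338 for the LNCaP surface by serum term, 123 for LNCaP minus RWPE, 94 for VCaP minus RWPE and 184 for MDAPCa2a minus LNCaP. Of the 9 genes, 2 for LNCaP stripping on plastic and 2 for MDAPCa2a stripping on plastic were then called. With DESeq2, the number of all genes called became 1334 for RWPE surface, 41 for VCaP surface, 1733 for LNCaP surface in stripped serum, 4 for VCaP surface in stripped serum, 206 for MDAPCa2a surface in stripped serum, 1172 for VCaP stripping on plastic, 594 for MDAPCa2a stripping on plastic, 1307 for LNCaP stripping on ACP, 845 for VCaP stripping on ACP, 1733 for LNCaP androgen, 3 for MDAPCa2a androgen, 201 for the LNCaP surface by serum term, 139 for LNCaP minus RWPE, 97 for VCaP minus RWPE and 210 for MDAPCa2a minus LNCaP. Of the 9 genes, 2 for MDAPCa2a stripping on plastic were then called. In the fit of all lines, the number of all genes called became 647 for LNCaP surface, 64 for VCaP surface, 342 for LNCaP surface in stripped serum, 27 for MDAPCa2a surface in stripped serum, 1561 for VCaP stripping on plastic, 393 for MDAPCa2a stripping on plastic, 1057 for VCaP stripping on ACP, 739 for LNCaP androgen, 4545 for VCaP androgen, 1 for MDAPCa2a androgen and 73 for the LNCaP surface by serum term. Of the 9 genes, 1 for RWPE surface and 0 for MDAPCa2a stripping on plastic were then called. Without the plastic control libraries, the number of all genes called became 372 for LNCaP surface in stripped serum, 0 for MDAPCa2a surface in stripped serum, 504 for LNCaP stripping on ACP, 326 for VCaP stripping on ACP, 696 for LNCaP androgen and 1402 for RWPE androgen. With RLE size factors, the number of all genes called became 25 for VCaP stripping on plastic.

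With the replicate number as a block, all genes called numbered 2661 for RWPE surface, 3 for VCaP stripping on plastic, 340 for VCaP stripping on ACP and 5741 for RWPE androgen, and 5 for RWPE surface and 3 for RWPE androgen of the 9 genes were called. RWPE androgen replicate 3 is alone in its block there, which takes it out of the comparison. Whether the numbers pair the libraries is not known. Over 25 pairs of groups of a line, the correlation of the difference between replicates 1 and 2 ran from -0.234 to 0.207. Of these correlations, 6 were over 0.1, and values this weak cannot decide the question. Among the single genes, the block brought WWTR1 and TEAD1 on ACP in RWPE under the threshold (adjusted p = 0.0385 and 0.0458, edgeR) and took CTGF in LNCaP against RWPE over it (adjusted p = 0.132).

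Leaving out each library of a comparison in turn gave ranges of 4 to 106 for RWPE surface, 0 to 2385 for LNCaP surface, 1 to 19 for VCaP surface, 66 to 1278 for LNCaP surface in stripped serum, 0 to 303 for MDAPCa2a surface in stripped serum, 310 to 1444 for LNCaP stripping on plastic, 90 to 220 for VCaP stripping on plastic, 0 to 7 for MDAPCa2a stripping on plastic, 191 to 771 for LNCaP stripping on ACP, 0 to 309 for VCaP stripping on ACP, 201 to 1771 for LNCaP androgen, 766 to 2318 for VCaP androgen, 0 to 3 for MDAPCa2a androgen, 0 to 6102 for RWPE androgen, 11 to 148 for the LNCaP surface by serum term, 3 to 57 for LNCaP minus RWPE, 4 to 104 for VCaP minus RWPE and 26 to 73 for MDAPCa2a minus LNCaP for all genes, and of 0 to 1 for RWPE surface, 0 to 1 for LNCaP surface, 0 to 0 for LNCaP stripping on plastic, 0 to 0 for MDAPCa2a stripping on plastic, 0 to 1 for LNCaP stripping on ACP, 0 to 2 for LNCaP androgen and 0 to 3 for RWPE androgen for the 9 genes. For the 9 genes, the libraries without which a call was lost are named in the text beside it. Among the called list genes, leaving out libraries is described only for FLNA and AMOTL1.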

Other observations

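Beyond surface, the angiomotin AMOTL1, a scaffold that binds YAP1 and is a relative of AMOTL2, followed serum and androgen in LNCaP. It was chosen after its values were seen. On plastic it was at 2.45 to 2.78 CPM in control medium and 7.08 to 8.31 CPM in stripped serum. On ACP it was at 1.14 to 2.12 CPM in control medium, 8.86 to 16.1 CPM in stripped serum and 1.55 to 2.51 CPM with androgen. Stripping on ACP gave a log2 fold change of 2.92 ± 0.39 (adjusted p = 0.00178) and androgen -2.63 ± 0.38 (adjusted p = 0.00231, edgeR quasi-likelihood test), and both calls held without each library in turn. The order was the opposite of that of WWTR1 in the same libraries, and the 2 comparisons share the stripped libraries.

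Of the 19 Hippo, scaffold and cofactor genes tested in LNCaP, 4 rose and 2 fell with stripping on plastic, where 9.45% of all genes were called, and 3 rose and 2 fell on ACP, where 5.37% were. With androgen on ACP in LNCaP, where 3.77% of all genes rose and 3.96% fell, 0 of 19 Hippo genes rose and 3 fell, 2 of 13 further target genes rose and 2 fell, and 1 of 11 actin genes rose and 0 fell. With androgen in VCaP, where 8.67% of all genes rose and 8.8% fell, 0 of 19 Hippo genes rose and 1 fell, 2 of 15 further target genes rose and 3 fell, and 0 of 13 actin genes rose and 1 fell. In RWPE with androgen, where 19.1% of all genes were called, 1 of 21 Hippo genes rose and 4 fell, 5 of 15 further target genes fell, and 3 of 12 actin genes fell, with RWPE androgen replicate 3 standing apart as described. Of the 14293 genes tested in RWPE, 1579 rose and 1151 fell with androgen, and whether the list counts differ from these shares was not tested. Without the plastic control libraries in that fit, 0 Hippo genes and 3 target genes were called.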
